A study of Homo sapiens with 9 samples.

Results

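The genes described here encode surface proteins through which a tumour cell holds back, or draws, an attack by T cells, natural killer (NK) cells or macrophages. They are the 10 genes CD274, PDCD1LG2, CD276, CD47, NT5E, PVR, NECTIN2, ULBP2, MICA and MICB, and they were taken by gene symbol from the 58884 genes of the count table. Their RNA was measured by RNA-seq in MDA-MB-231 (referred to as Par), a claudin-low human breast cancer cell line, and in its sub-populations LM2 and BrM2, which were selected in mice for colonization of the lung and of the brain. Each line was profiled in 3 libraries, from cultures harvested at different passages, and the labels name no treatment and no engineered allele. All 3 lines grew as monolayers in DMEM with serum for 3 days before harvest, without immune cells, so the values describe tumour cells outside a host. LM2 and BrM2 are each a single selected population, and a difference between lines is a difference between these populations.

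PD-L1 and PD-L2, the products of CD274 and PDCD1LG2, bind PD-1 on T cells and dampen their response, and PD-L1 is induced by interferon gamma in many tumour cells. CD47 gives phagocytes a signal not to engulf the cell, and CD73, the product of NT5E, turns extracellular AMP into adenosine, which suppresses lymphocytes. PVR and NECTIN2 are bound by the activating receptor CD226 and the inhibitory receptor TIGIT on NK and T cells, and the stress-induced ligands ULBP2, MICA and MICB are recognized by the activating receptor NKG2D.

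Counts on genes totalled 14371858 to 24511786 per library (median 22055215). All 10 genes were among the 13055 genes tested, at 39 to 27787 counts per library, the lowest count belonging to PDCD1LG2, for which counting error weighs most. The replicates are separate passages of a line. Without a term for the replicate number, p-values rest on the whole spread between these libraries, including a shift of replicate 1 shared by the lines. With the replicate number as a block, they rest on the spread left after the shared part is taken out. The values are RNA levels, and in such bulk samples fewer cells expressing a gene and less RNA per cell cannot be told apart. Of 13 markers of immune cells, 5 had at most 3 counts in every library, PTPRC, which encodes the leukocyte protein CD45, had at most 6, and PDCD1, the receptor of PD-L1, at most 2. CD226 had at most 39, and 2 of the 13 were among the genes tested, CD14 with at most 87 counts and CD8A with at most 56. Together the 13 markers reached 3.85 to 7.55 CPM (counts per 1e6 counts). The summed CPM of marker lists are per library total without TMM normalization, and all other CPM values are with it. The 6 genes listed as present in MDA-MB-231, among them VIM and CD44, summed to between 3450 and 5380 CPM. Of 8 epithelial, claudin and receptor genes listed as low, ESR1 and PGR had at most 16 and 4 counts, but 4 passed the filter, and ERBB2 and CLDN4 reached 112 and 95.3 CPM in Par. Markers of endothelial cells and fibroblasts summed to 32.1 to 36.1 CPM in Par, 6.57 to 10.8 CPM in LM2 and 9.7 to 13.4 CPM in BrM2, of which PDGFRB made up most, while the fibroblast gene DCN had at most 2 counts. The part of these markers in the results below was not tested.

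The 10 genes differed widely in their level. Per kilobase of annotated exons, NT5E was the highest in Par, at 125 ± 30.8 CPM per kb (SD, n = 3), and stood at percentile 98.1 of the tested genes. NECTIN2 (41.9 ± 10.5 CPM per kb), MICB (39.1 ± 10.7) and MICA (26.5 ± 5.49) came next. ULBP2 (15.3 ± 2.41 CPM per kb), PVR (14.2 ± 1.88), CD47 (12.6 ± 2.698), CD276 (10.0 ± 2.80) and CD274 (7.13 ± 0.996) followed, and PDCD1LG2 was the lowest, at 2.01 ± 0.127 CPM per kb and percentile 29. NT5E and NECTIN2, MICA and ULBP2, and CD274 and PDCD1LG2 were neighbours in this order that lay farther apart than their SDs. The other neighbours lay no farther apart than their SDs, which include differences between libraries that genes can share. Neighbours were not compared within each library. PD-L2 RNA was below PD-L1 RNA in every line, with 2.25 against 5.53 CPM per kb in LM2 and 1.82 against 8.26 in BrM2.

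**Figure D1:**
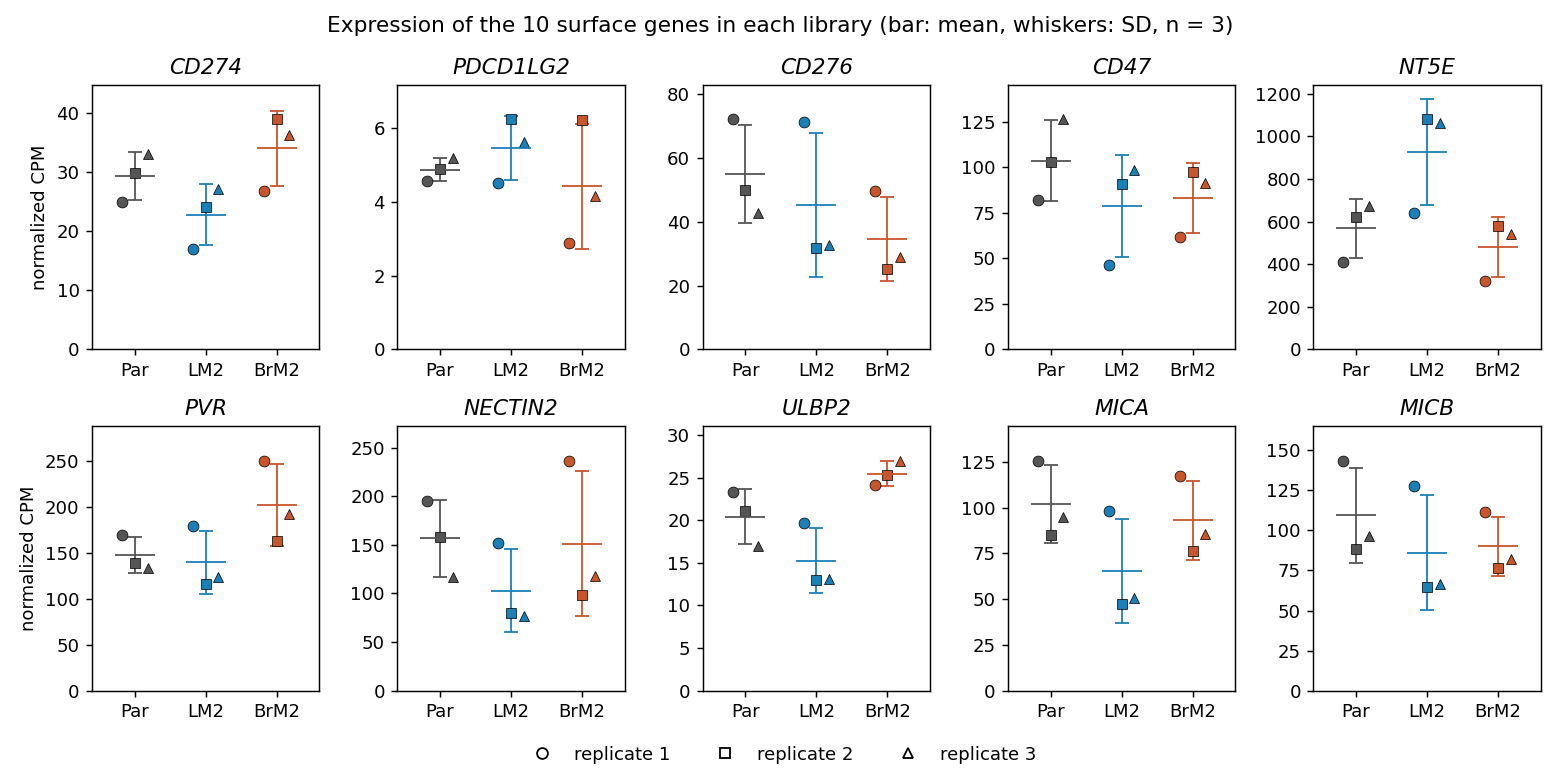
Normalized CPM (y axis, from 0 in each panel) of the 10 genes in the 9 libraries, by line, with the symbol giving the replicate number, the bar the mean and the whiskers the SD of 3 libraries. In NT5E the circles of replicate 1 lie lowest in each line (409, 641 and 320 CPM), and in MICA they lie highest (126, 98.1 and 118 CPM).

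Within every line the first replicate differed from the mean of replicates 2 and 3, in a direction that differed between the genes. It did not always stand apart, as NECTIN2 in Par went from 195 to 158 and 117 CPM over replicates 1, 2 and 3. For CD47, replicate 1 was lower than the mean of the other replicates by 0.71 on the log2 scale, averaged over the lines, and NT5E (-0.74), CD274 (-0.47) and PDCD1LG2 (-0.44) were lower as well. CD276, in contrast, was higher in replicate 1 by a log2 difference of 0.89, NECTIN2 by 0.87, MICB by 0.69, MICA by 0.67, PVR by 0.47 and ULBP2 by 0.26. These directions held in each line, except for ULBP2 in BrM2 (-0.12). The 4 genes that were lower have the least GC in their longest transcript, from 38.4% in CD47 to 45.2% in NT5E, and the 6 that were higher run from 47% in ULBP2 to 60.7% in NECTIN2. Among all tested genes the median shift went from -1.12 in the lowest to 0.82 in the highest decile of GC content. The shift was also uneven between lines, and for MICA it was 0.48 in Par, 1 in LM2 and 0.54 in BrM2, and for CD47 -0.48, -1.03 and -0.62. A block for the replicate number takes out the part that the lines share and leaves this uneven part.

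**Figure D2:**
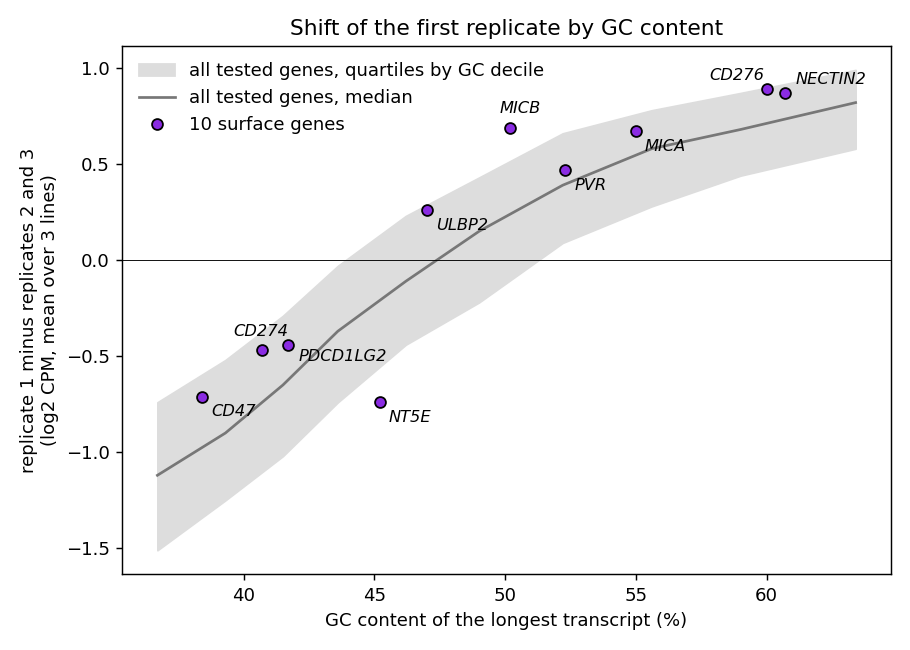
Difference of replicate 1 from the mean of replicates 2 and 3 (y axis, log2 CPM, mean over the 3 lines) against the GC content of the longest transcript (x axis, %). The grey band and line give the quartiles and median of all tested genes per GC decile, and the purple points are the 10 genes, of which CD276 at 0.89 and NECTIN2 at 0.87 lie highest and NT5E at -0.74 lowest.

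Differences between lines were tested in edgeR across all 13055 genes, first without a term for the replicate number and then with it as a block. Without the block, none of the 10 genes passed an adjusted p of 0.05 in any comparison, while 8.69% of all tested genes did in LM2 vs Par, 13.3% in BrM2 vs Par and 8.1% in BrM2 vs LM2. In the same order, 4.17%, 6.25% and 4.11% of all genes were called higher, and 4.52%, 7.02% and 3.99% lower. At an unadjusted p under 0.05 from edgeR, 1 of the 10 genes differed in LM2 vs Par, 0 in BrM2 vs Par and 3 in BrM2 vs LM2, beside 20.2%, 25% and 20.9% of all genes, and DESeq2 called 0, 0 and 2 at an adjusted p under 0.05. With the block, 6 of the 10 passed in LM2 vs Par, 2 in BrM2 vs Par and 6 in BrM2 vs LM2. The shares of all tested genes that passed with the block were 34.5%, 42.7% and 37.5%. The fold changes themselves were nearly the same in both models, and it was the error that shrank, as the common dispersion fell from 0.11 to 0.021. The libraries of the lines compared were fully separate for 0 of the 10 genes in LM2 vs Par, against 25.2% of all genes. They were separate for ULBP2 alone in BrM2 vs Par, against 31.3%, and for NT5E and ULBP2 in BrM2 vs LM2, against 23.1%. Full separation with the first line above was seen in 11.8%, 15.2% and 11.4% of all genes in LM2 vs Par, BrM2 vs Par and BrM2 vs LM2, and with the first line below in 13.4%, 16.1% and 11.7%.

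The direction of the differences was mostly down in LM2. With the block, 5 of the 10 genes were lower in LM2 than in Par (CD274, CD47, NECTIN2, MICA and MICB) and NT5E was higher, while 19.1% of all genes were called lower and 15.5% higher. In BrM2 vs Par, PVR was higher and CD276 lower, beside 19.5% and 23.2% of all genes. In BrM2 vs LM2, 5 genes were higher in BrM2 (CD274, PVR, NECTIN2, ULBP2 and MICA) and NT5E was lower, beside 17.8% and 19.7%. The median log2 fold change of the 10 genes with the block was -0.38 in LM2 vs Par, -0.15 in BrM2 vs Par and 0.33 in BrM2 vs LM2, and that of all tested genes was -0.016, -0.04 and -0.017. Because LM2 vs Par and BrM2 vs Par use the same Par libraries, their values are not independent. In each comparison, 8 of the 10 genes differed in the same direction within all 3 replicate numbers, against 61.8%, 62.8% and 65.3% of all genes.

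The calls with the block varied with the libraries used. With replicate 1 left out of all lines, 5, 2 and 5 genes passed with the block in LM2 vs Par, BrM2 vs Par and BrM2 vs LM2, and 6, 3 and 5 passed without it. With replicate 2 left out the block gave 4, 3 and 6 calls, and with replicate 3 left out 1, 1 and 2. Calls among all tested genes changed as well. With the block they numbered 4510, 5577 and 4896 with all libraries, in the same order. They were 3651, 4808 and 3725 without replicate 1, 4212, 5846 and 5374 without replicate 2, and 2149, 3017 and 2066 without replicate 3. Whether the genes described here lost more calls than all genes was not tested.

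**Figure D3:**
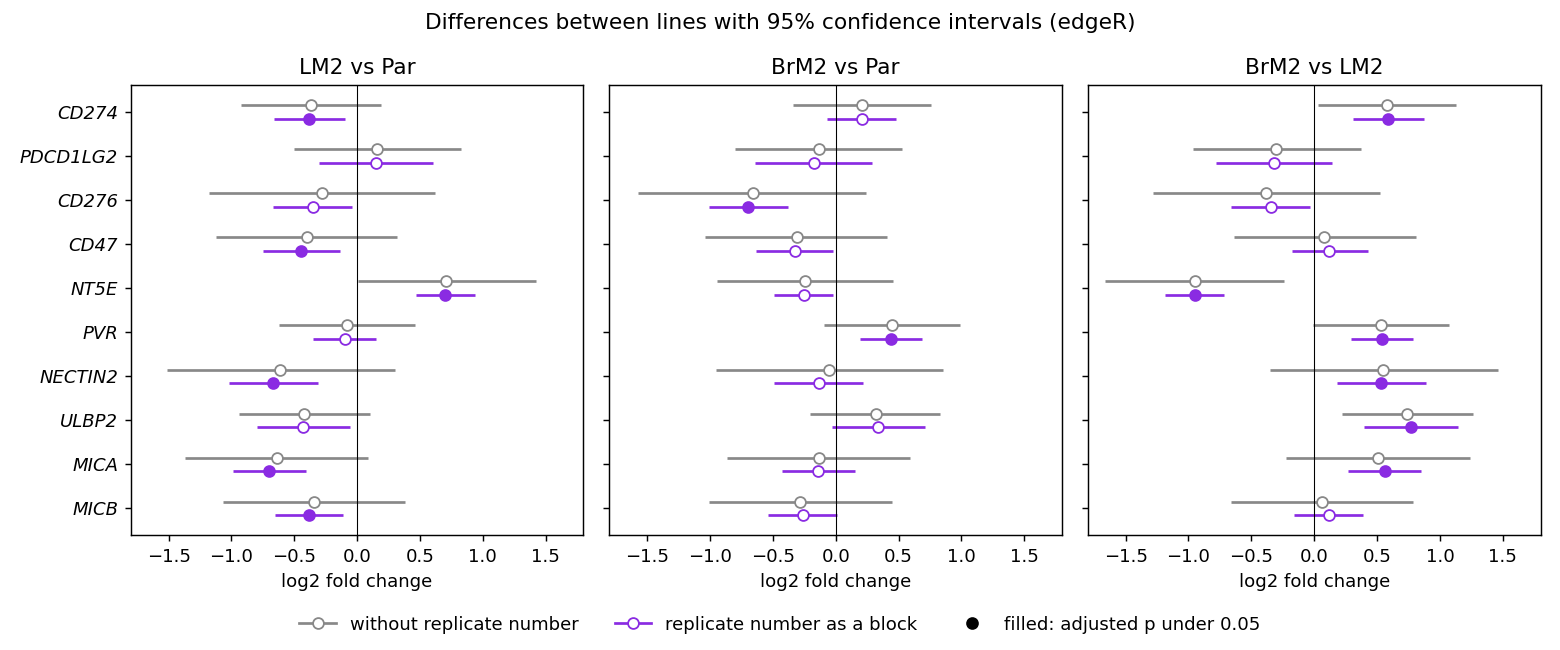
Log2 fold changes (x axis) of the 10 genes in the 3 comparisons, as points with 95% confidence intervals, from edgeR without (grey) and with (purple) the replicate number as a block, where a filled point has an adjusted p under 0.05. No grey point is filled, and the purple points of NT5E lie at 0.70 in LM2 vs Par, and at -0.95 for BrM2 against LM2.

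CD274 (ENSG00000120217, chromosome 9, 5450542 to 5470554 in GRCh38.p14, as are all positions given) was examined first, since its product PD-L1 is the main ligand of PD-1. CD274 was at 24.96, 29.8 and 33.1 CPM in replicates 1, 2 and 3 of Par, at 17.0, 24.03 and 27.1 CPM in LM2 and at 26.7, 38.8 and 36.3 CPM in BrM2. Within each replicate number LM2 was the lowest line and BrM2 the highest, although the libraries of the lines overlapped. Between LM2 and BrM2, CD274 had a log2 fold change of 0.58 (SE, the standard error, 0.24, edgeR adjusted p 0.22) without the block and 0.59 (SE 0.13, edgeR adjusted p 0.0047) with it. The latter call was kept with replicate 1, 2 or 3 left out of all lines, at adjusted p-values of 0.024, 0.012 and 0.047 in edgeR. In LM2 vs Par the log2 fold change with the block was -0.38 (SE 0.13, edgeR adjusted p 0.038), and none of the blocked fits without a replicate number kept that call. In BrM2 vs Par it was 0.21, with a 95% confidence interval of -0.07 to 0.48.

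The promoter of CD274 is shown because this gene is a known target of interferon gamma, with matches to 6 motifs searched on both strands in capitals. These were the core of the interferon-stimulated response element (GAAA, any 2 bases, GAAA), the gamma-activated site (TTCNNNGAA), the core of the heat shock element (GAANNTTC), the AP-1 site (TGANTCA), the core of the hypoxia response element (ACGTG) and the core of the GC box (GGGCGG). The sequence, from RefSeq in GRCh38.p14, spans chr9:5450292-5450591 on the plus strand, from 250 bases before the start site to 50 bases from it on.
CD274 promoter: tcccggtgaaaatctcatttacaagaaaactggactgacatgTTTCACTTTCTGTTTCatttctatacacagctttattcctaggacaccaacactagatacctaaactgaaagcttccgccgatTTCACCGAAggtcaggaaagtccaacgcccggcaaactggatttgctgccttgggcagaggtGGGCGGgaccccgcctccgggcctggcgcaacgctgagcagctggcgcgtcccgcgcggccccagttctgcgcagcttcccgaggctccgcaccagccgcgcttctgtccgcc
It holds 2 overlapping matches to the interferon-stimulated response element core, which begin 208 and 202 bases before the start site and which 3.57% of all 35116 promoters of this length contain. It also holds a gamma-activated site 125 bases before the start site (7.66% of promoters) and a GC box core 63 bases before it (45% of promoters). A match says only that the letters are present.

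PDCD1LG2 (ENSG00000197646), which encodes the second PD-1 ligand PD-L2, lies 60 kb from CD274 on chromosome 9, from 5510531 to 5571282. It was at 4.57, 4.89 and 5.19 CPM in Par, 4.52, 6.24 and 5.63 CPM in LM2, and 2.88, 6.22 and 4.17 CPM in BrM2. The lines overlapped, and within replicate 2 the values of LM2 and BrM2 were nearly equal. The 95% confidence intervals of the log2 differences with the block were -0.3 to 0.6 in LM2 vs Par, -0.64 to 0.29 in BrM2 vs Par and -0.78 to 0.14 in BrM2 vs LM2. PD-L1 and PD-L2 RNA therefore did not share a called difference.

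CD276 (ENSG00000103855, chromosome 15, 73683944 to 73714514) encodes B7-H3, a B7 family protein with inhibitory effects on T cells. It was at 72.1, 49.99 and 42.6 CPM in Par, 71.3, 31.7 and 32.7 CPM in LM2, and 49.8, 25.3 and 29.0 CPM in BrM2. BrM2 was the lowest line within every replicate number. The log2 fold change of CD276 in BrM2 vs Par was -0.66 (SE 0.40, edgeR adjusted p 0.37) without the block and -0.70 (SE 0.14, edgeR adjusted p 0.0027) with it, and all 3 blocked fits without a replicate number kept the latter call. In LM2 vs Par the log2 difference was close to 0 in replicate 1 (-0.02) and larger in replicates 2 and 3 (-0.66 and -0.38). With the block its adjusted p was 0.077 in edgeR, and with replicate 1 of all lines left out the log2 fold change was -0.52, with an adjusted p of 0.023 without and 0.045 with the block. Leaving out single libraries moved the unblocked value from -0.04 without Par replicate 1 to -0.77 without LM2 replicate 1, and none of these fits called it.

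CD47 (ENSG00000196776, chromosome 3, 108043091 to 108091031) was at 81.8, 103 and 126 CPM in the replicates of Par. The values were 46.4, 90.8 and 98.6 CPM in LM2 and 61.4, 97.2 and 91.5 CPM in BrM2. Both sub-populations were below Par in each replicate number, by log2 differences of -0.82, -0.18 and -0.36 in LM2 and -0.41, -0.08 and -0.46 in BrM2. The block gave a log2 fold change of -0.45 (SE 0.14, edgeR adjusted p 0.029) in LM2 vs Par. Of the blocked fits without a replicate number, the one without replicate 2 kept this call. In BrM2 vs Par the adjusted p was 0.083 with the block in edgeR, and between BrM2 and LM2 the 95% confidence interval was -0.18 to 0.43.

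NT5E (ENSG00000135318, chromosome 6, 85450083 to 85495784), the gene of the ectoenzyme CD73, was called in BrM2 vs LM2 and in LM2 vs Par with the block. It was at 409, 622 and 672 CPM in Par, at 641, 1079 and 1064 CPM in LM2, and at 320, 581 and 543 CPM in BrM2. All LM2 libraries were above all BrM2 libraries, and within each replicate number the order was LM2, Par, BrM2. In BrM2 vs LM2 the log2 fold change of NT5E was -0.95 in both models, or 1.93-fold more RNA in LM2 without the block, with an adjusted p of 0.12 without the block (SE 0.31, edgeR) and 7.8e-05 with it (SE 0.11, edgeR). DESeq2 gave an adjusted p of 0.03, and edgeR without the block 0.047 once LM2 replicate 1 was left out. In LM2 vs Par the log2 fold change was 0.71 (SE 0.31, edgeR adjusted p 0.24) without the block and 0.70 (SE 0.11, edgeR adjusted p 0.00054) with it. Both blocked calls were kept with any replicate number left out, at log2 fold changes from -0.99 to -0.92 and from 0.67 to 0.77. In BrM2 vs Par the difference was -0.25 with the block, at an adjusted p of 0.076 in edgeR.

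The promoter of NT5E is shown for comparison with that of CD274, since the lines took a different order in these genes. It lies at chr6:85449833-85450132 on the plus strand, and the same motifs are in capitals.
NT5E promoter: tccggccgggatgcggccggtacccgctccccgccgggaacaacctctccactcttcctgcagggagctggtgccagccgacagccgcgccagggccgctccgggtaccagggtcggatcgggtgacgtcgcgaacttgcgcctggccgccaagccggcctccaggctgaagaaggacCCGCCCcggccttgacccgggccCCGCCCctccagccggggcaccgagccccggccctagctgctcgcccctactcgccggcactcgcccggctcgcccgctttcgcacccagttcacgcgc
The 2 matches are GC box cores, 72 and 49 bases before the start site, and none of the other 5 motifs was found in this window.

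PVR (ENSG00000073008, chromosome 19, 44643910 to 44666162) encodes CD155, the ligand of TIGIT with the higher affinity. It was at 170, 140 and 133 CPM in Par, at 180, 116 and 124 CPM in LM2, and at 251, 163 and 193 CPM in BrM2. BrM2 was the highest line in each replicate number. The log2 fold change of PVR was 0.45 (SE 0.24, edgeR adjusted p 0.29) in BrM2 vs Par without the block and 0.44 (SE 0.11, edgeR adjusted p 0.01) with it. In BrM2 vs LM2 it was 0.53 (edgeR adjusted p 0.25) without and 0.54 (edgeR adjusted p 0.0043) with the block. Both blocked calls were kept without replicate 1 and without replicate 2, and lost without replicate 3. For LM2 vs Par the 95% confidence interval with the block was -0.35 to 0.15. Of the exons of PVR, 19.5% are also annotated to a gene on the same strand that had no counts. How reads in this stretch were counted is not known, so the level of PVR per kilobase is less certain.

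NECTIN2 (ENSG00000130202, chromosome 19, 44846297 to 44889223), whose product CD112 is bound by CD226, TIGIT and PVRIG, took another course. It was at 195, 158 and 117 CPM in Par, at 152, 79.7 and 76.8 CPM in LM2, and at 237, 98.5 and 118 CPM in BrM2. LM2 was the lowest line in every replicate number, while BrM2 was above Par in replicate 1, below it in replicate 2 and at about its level in replicate 3 (log2 differences 0.28, -0.68 and 0.02). With the block, NECTIN2 had a log2 fold change of -0.67 (SE 0.16, edgeR adjusted p 0.0091) in LM2 vs Par and of 0.53 in BrM2 vs LM2 (SE 0.16, edgeR adjusted p 0.025). Without the block the adjusted p-values were 0.48 and 0.51 in edgeR. The blocked call for LM2 vs Par was kept without replicate 1 and without replicate 2, and that for BrM2 vs LM2 only without replicate 2. PVR and NECTIN2 thus both lay higher in BrM2 than in LM2 with the block. For NECTIN2 in BrM2 vs Par the 95% confidence interval with the block was -0.49 to 0.22, and whether it differs from PVR there was not tested.

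The 3 NKG2D ligands among the 10 genes were lower in LM2 than in Par within every replicate number. Of other NKG2D ligands tested, RAET1E was higher in LM2 by 1.73 on the log2 scale, as described below. ULBP3 and RAET1G had log2 fold changes of 0.42 and -0.07 there and were not called. ULBP2 (ENSG00000131015, chromosome 6, 149942014 to 149949235) was at 23.3, 21.1 and 16.9 CPM in Par, at 19.6, 13.0 and 13.1 CPM in LM2, and at 24.1, 25.3 and 27.0 CPM in BrM2. Every BrM2 library was above every library of LM2 and of Par. In BrM2 vs LM2 the log2 fold change of ULBP2 was 0.74 (SE 0.23, edgeR adjusted p 0.095) without the block and 0.77 (SE 0.17, edgeR adjusted p 0.0052) with it, and DESeq2 gave an adjusted p of 0.027. Leaving out LM2 replicate 1 moved the unblocked log2 fold change to 0.96 and its adjusted p to 0.027 in edgeR. The blocked call was kept without replicate 1 and without replicate 2. Against Par, the adjusted p with the block was 0.07 in LM2 and 0.13 in BrM2 (edgeR), so that neither passed. The counts of ULBP2 are uncertain to some extent, since 29.7% of its 50-base stretches also occur in RAET1L, which had a mean of 4.1 counts, and 11.7% in RAET1G, which had 71.7.

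MICA (ENSG00000204520, chromosome 6, 31400711 to 31415315) and MICB (ENSG00000204516, chromosome 6, 31494918 to 31511124) are neighbours in the major histocompatibility complex. MICA was at 126, 85.1 and 95.1 CPM in Par, at 98.1, 47.5 and 50.6 CPM in LM2, and at 118, 76.3 and 85.5 CPM in BrM2. LM2 was the lowest line in all replicate numbers, and replicate 1 of LM2 alone reached into the range of Par. In LM2 vs Par the log2 fold change of MICA was -0.64 (SE 0.32, edgeR adjusted p 0.32) without the block and -0.70 (SE 0.13, edgeR adjusted p 0.0023) with it. With LM2 replicate 1 left out it was -1.06, and the adjusted p in edgeR without the block became 0.04. In BrM2 vs LM2 the blocked log2 fold change was 0.56 (SE 0.13, edgeR adjusted p 0.0075). Both blocked calls of MICA were kept without replicate 1 and without replicate 2, and lost without replicate 3. In BrM2 vs Par the 95% confidence interval with the block was -0.43 to 0.15.

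MICB was at 144, 88.4 and 96.3 CPM in Par, at 127, 64.6 and 66.6 CPM in LM2, and at 111, 76.5 and 82.4 CPM in BrM2. Both sub-populations were below Par in every replicate number. The difference in LM2 vs Par was -0.38 with the block (SE 0.12, edgeR adjusted p 0.035), and this call was kept only with replicate 1 left out. Unlike MICA, MICB gave no call between BrM2 and LM2, where its 95% confidence interval with the block was -0.16 to 0.39. Whether MICA and MICB differ from each other in this respect was not tested. Of all stretches of 50 bases in MICA, 1.11% also occur in MICB, and 1.61% of those in MICB occur in MICA.

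The promoters of the 3 NKG2D ligands among the 10 genes are shown because these genes lay on the same side of Par in LM2. They lie on chromosome 6 on the plus strand, at chr6:149941764-149942063 (ULBP2), chr6:31403345-31403644 (MICA) and chr6:31497895-31498194 (MICB), with the motif matches in capitals as above. The start sites of the MICA and MICB entries lie inside the spans given for the genes, downstream of their first base.
ULBP2 promoter: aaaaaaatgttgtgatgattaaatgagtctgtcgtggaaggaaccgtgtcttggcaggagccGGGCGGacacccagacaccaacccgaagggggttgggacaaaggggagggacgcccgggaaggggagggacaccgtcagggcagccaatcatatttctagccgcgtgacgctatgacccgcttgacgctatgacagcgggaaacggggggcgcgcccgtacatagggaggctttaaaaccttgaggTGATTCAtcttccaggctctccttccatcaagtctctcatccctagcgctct
MICA promoter: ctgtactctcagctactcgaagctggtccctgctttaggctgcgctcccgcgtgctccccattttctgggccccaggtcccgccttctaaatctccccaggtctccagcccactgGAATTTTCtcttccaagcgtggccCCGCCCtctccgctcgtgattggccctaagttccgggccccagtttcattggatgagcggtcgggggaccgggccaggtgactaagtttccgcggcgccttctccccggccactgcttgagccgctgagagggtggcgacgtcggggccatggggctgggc
MICB promoter: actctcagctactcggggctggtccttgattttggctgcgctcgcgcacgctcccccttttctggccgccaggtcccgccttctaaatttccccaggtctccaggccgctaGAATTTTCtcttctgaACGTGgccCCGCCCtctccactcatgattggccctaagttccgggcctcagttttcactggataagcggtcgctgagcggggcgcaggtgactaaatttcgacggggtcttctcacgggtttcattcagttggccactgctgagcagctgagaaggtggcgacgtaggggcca
When aligned, the promoters of MICA and MICB had 246 identical bases, 38 mismatches and 32 gap positions, and 86.6% of the aligned bases were identical. Both hold the core of the heat shock element, 135 bases before the start site in MICA and 139 in MICB, which is found in 6.77% of all promoters and not in the window of ULBP2. ULBP2 has an AP-1 site at its start site, from 2 bases before it (7.71% of promoters). MICB has a hypoxia response element core 123 bases before the start site (21.4% of promoters). Each of the 3 has a GC box core. A promoter sequence was found for 9 of the 10 genes.

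Genes whose products act with these proteins were examined in 7 lists, with counts of calls from edgeR without the block. There were 28 calls in 17 of these genes, each of which also passed with the block and in DESeq2. Of all tested genes, 8.69% were called in LM2 vs Par, 13.3% in BrM2 vs Par and 8.1% in BrM2 vs LM2. With the block these shares were 34.5%, 42.7% and 37.5%, and at an unadjusted p under 0.05 without it 20.2%, 25% and 20.9% (edgeR). Whether a list departs from these shares was not tested. The filter kept genes by their largest library. Genes with low means in some lines, such as TNFSF4, ENTPD3, CD96 and RAET1E, could thus enter through a line where they were high. A call of such a gene as higher in that line is not independent of the filter. A number of fits given beside a call says in how many of the 9 fits that leave out a single library it was kept. Genes with values here that were not called without the block were chosen after their values were seen. Of the ligands of the B7, butyrophilin and TNF superfamilies, 11 of 17 were tested, and CD80, CD86, ICOSLG, VTCN1 and HHLA2 had at most 2 counts in any library. Of the 11 tested, 1 rose and 2 fell in LM2 vs Par, in BrM2 vs Par 1 fell, and in BrM2 vs LM2 1 fell. TNFSF4, which encodes OX40L, a costimulatory ligand for T cells, was at 14.8 ± 3.20 CPM in LM2 (SD, n = 3), 1.86 ± 0.571 in Par and 1.14 ± 0.464 in BrM2. Its log2 fold change was 2.97 in LM2 vs Par (SE 0.36, edgeR adjusted p 0.0012) and -3.67 in BrM2 vs LM2 (SE 0.38, edgeR adjusted p 0.00054), and both calls were kept in all 9 fits without a single library. TNFSF18, the ligand of the costimulatory receptor GITR, fell by 2.35 on the log2 scale in LM2 (edgeR adjusted p 0.048, 2 of 9 fits). BTN3A1, a butyrophilin sensed by gamma delta T cells, fell by 0.91 on the log2 scale in LM2 (edgeR adjusted p 0.016, 5 of 9 fits), and BTN3A2 fell by 0.71 in BrM2 (edgeR adjusted p 0.027, 2 of 9 fits). BTN3A1 lost its call without Par replicate 1 or 3 or LM2 replicate 2 or 3 (log2 fold changes from -0.97 to -0.85 over the 9 fits). BTN3A2 kept its call only without LM2 replicate 1 or 3 (log2 fold changes from -0.76 to -0.63 over the 9), and TNFSF18 only without replicate 1 of Par or BrM2 (log2 fold changes from -2.73 to -1.78 over the 9). Of the stretches of 50 bases, 7.13% in BTN3A1 and 13.9% in BTN3A2 also occur in other genes, so their counts are less certain.

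Among 16 genes that control PD-L1, 14 were tested. None rose and 1 fell in LM2 vs Par, in BrM2 vs Par 0 rose and 2 fell, and in BrM2 vs LM2 0 rose and 0 fell, with 0 at an unadjusted p under 0.05 in edgeR and 0 called by DESeq2. IFNGR2, a chain of the interferon gamma receptor, was at 38.8 ± 9.68 CPM in Par (SD, n = 3), 17.6 ± 3.33 in LM2 and 18.5 ± 1.92 in BrM2. It fell by 1.14 in LM2 and fell by 1.07 in BrM2 on the log2 scale (edgeR adjusted p 0.019 in both), and each call was kept in 6 of 9 fits, lost without Par replicate 1 in both lines and without replicate 2 or 3 of the line compared (log2 fold changes from -1.30 to -0.92 over the 9 fits in LM2 and from -1.19 to -0.84 in BrM2). An expressed gene on the opposite strand, TMEM50B, overlaps IFNGR2. STAT2, a factor of the type I interferon response, fell by 0.83 in BrM2 (edgeR adjusted p 0.017, 5 of 9 fits). Its call was lost without replicate 2 or 3 of Par or BrM2 (log2 fold changes from -0.94 to -0.68 over the 9 fits). IFNGR1, JAK1 and CMTM6, which stabilizes PD-L1 at the surface, had log2 fold changes between -0.05 and 0.14 over the 3 comparisons, and none was called. In BrM2 vs LM2 the block called 17.8% of all genes higher and 19.7% lower, and CD274 was called as well. Of these 14 genes it called 4 higher and 2 lower, and a link to CD274 was not tested. The higher genes were PTPN2 and SOCS3, which dampen JAK and STAT signalling (log2 fold changes 0.79 and 0.53), and the transcription factors IRF2 and STAT3 (0.46 and 0.32). The lower genes were the transcription factors IRF1 (-0.78) and STAT2 (-0.37), and the edgeR adjusted p with the block ran from 0.00037 for PTPN2 to 0.046 for STAT2.

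Genes that flank CD274 on the short arm of chromosome 9 were examined for a shift of the whole region. Of 15 such genes, 14 were tested and 0 passed without the block in any comparison. At an unadjusted p under 0.05 from edgeR 0, 0 and 1 of them differed in LM2 vs Par, BrM2 vs Par and BrM2 vs LM2, and DESeq2 called 0. With the block, 15.5% of all genes were higher in LM2 vs Par, 23.2% lower in BrM2 vs Par, and 17.8% higher and 19.7% lower in BrM2 vs LM2. Of the 14 genes, 1 was higher in LM2 vs Par, 3 were lower in BrM2 vs Par, and 1 was higher and 3 lower in BrM2 vs LM2. The gene higher in BrM2 vs LM2 was ERMP1, which starts 334 kb from CD274 (log2 fold change 0.72 with the block, edgeR adjusted p 0.006), and the lower genes were KIAA2026 (-0.71), AK3 (-0.53) and SMARCA2 (-0.38). The median log2 fold change of the list in this comparison was -0.22 without the block, over genes at unequal distances. PLGRKT and RIC1, the tested genes of the list nearest to CD274 and PDCD1LG2 on either side, had log2 fold changes of -0.14 and 0.38 in that comparison, and neither was called. ERMP1 and RIC1 overlap each other on opposite strands, so their counts are less certain.

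The 8 genes of the CD47 axis were all tested. Of these, 2 rose and 1 fell in LM2 vs Par, in BrM2 vs Par 3 rose and 2 fell, and in BrM2 vs LM2 1 rose and 2 fell. THBS2, a thrombospondin, was at 2.86 ± 0.700 CPM in Par (SD, n = 3), 1.01 ± 0.0613 in LM2 and 23.1 ± 2.65 in BrM2. It fell by 1.49 on the log2 scale in LM2 (edgeR adjusted p 0.0065) and rose in BrM2 by 3.01 (edgeR adjusted p 0.00015). THBS1, the thrombospondin known as a ligand of CD47, was at 1569 ± 329 CPM in Par and fell by 1.32 on the log2 scale in BrM2 (edgeR adjusted p 0.0052), while in LM2 its adjusted p was 0.074. CD24, the ligand of Siglec-10 and another signal against phagocytosis, rose by 1.94 in LM2 (edgeR adjusted p 0.0025) and by 2.72 in BrM2 (edgeR adjusted p 0.00035), from 2.07 ± 0.391 CPM in Par to 8.003 ± 1.995 and 13.7 ± 1.63. Sequence that CD24 shares with other genes, and genes that overlap it, were not determined. QPCT, a glutaminyl cyclase, rose by 2.12 in LM2 (edgeR adjusted p 0.001) and by 1.25 in BrM2 (edgeR adjusted p 0.0097). QPCTL, the related enzyme that modifies CD47 for binding to SIRPA, had log2 fold changes of 0.14 and 0.44 and was not called. SIRPA itself fell by 2.06 in BrM2 (edgeR adjusted p 0.008), with 12.3% of its 50-base stretches in other genes. LRP1, the phagocytic receptor for calreticulin, was lower in BrM2 than in LM2 by a log2 fold change of -1.21 (edgeR adjusted p 0.02, 5 of 9 fits), lost without replicate 2 or 3 of either line (log2 fold changes from -1.49 to -1.01 over the 9 fits), and STAT6 overlaps it on the opposite strand. SIRPA was also lower in BrM2 than in LM2 (log2 fold change -2.31, edgeR adjusted p 0.0069). Leaving out single libraries kept the other calls of this list in all 9 fits, except that of QPCT in BrM2, which was lost without Par replicate 2 (log2 fold changes from 1.07 to 1.42 over the 9 fits).

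Of 15 genes of adenosine metabolism and its receptors, 8 were tested. In LM2 vs Par 0 rose and 0 fell (edgeR), with 3 at an unadjusted p under 0.05 and 1 called by DESeq2. With the block 2 were higher and 1 lower, beside 15.5% and 19.1% of all genes. In both comparisons of BrM2, 1 gene rose and 0 fell. ENTPD3, which degrades ATP upstream of CD73, rose in BrM2 by 1.62 against Par (edgeR adjusted p 0.015, 6 of 9 fits) and by 1.97 against LM2 (edgeR adjusted p 0.0091), from 1.57 ± 0.620 CPM in Par (SD, n = 3) to 4.82 ± 0.848, and it overlaps its antisense gene ENTPD3-AS1. The call against Par was lost without Par replicate 2 or 3 or BrM2 replicate 3 (log2 fold changes from 1.41 to 1.97 over the 9 fits). ENTPD1, which encodes CD39, was at 14.1 ± 3.14 CPM in Par, 13.5 ± 6.13 in LM2 and 28.5 ± 12.3 in BrM2, and for BrM2 vs LM2 it passed with the block but not without it (log2 fold change 1.08, edgeR adjusted p 0.001). NT5E and ENTPD1 thus differed between LM2 and BrM2 in opposite directions with the block. ADORA2B, the only adenosine receptor that passed the filter, was at 77.0 ± 12.7 CPM in Par, 118 ± 40.3 in LM2 and 99.1 ± 16.9 in BrM2.

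The nectin family list had 5 of 9 genes tested, and 1 rose against Par in LM2 as well as in BrM2, while 0 differed in BrM2 vs LM2 (edgeR), with 3 at an unadjusted p under 0.05 and 2 called by DESeq2. This was CD96, a receptor for PVR that is otherwise found on T and NK cells, at 1.31 ± 0.420 CPM in Par (SD, n = 3), 7.36 ± 1.47 in LM2 and 4.13 ± 0.431 in BrM2. Its log2 fold changes were 2.48 in LM2 (SE 0.30, edgeR adjusted p 0.0012) and 1.64 in BrM2 (SE 0.30, edgeR adjusted p 0.0065), and all 9 fits without a single library kept both. TIGIT had 0 counts in all libraries and CD226 at most 39. AFDN, the scaffold that binds nectins inside the cell, was at 140 ± 26.1 CPM in Par and 61.5 ± 22.8 in LM2, with an adjusted p of 0.063 without and 5.6e-05 with the block in edgeR.

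Of the other ligands of NK receptors and the proteases that shed them, 14 of 17 genes were tested. Of these, 1 rose and 0 fell in LM2 vs Par, in BrM2 vs Par 1 rose and 1 fell, and in BrM2 vs LM2 1 rose and 1 fell. RAET1E, another NKG2D ligand, rose in LM2 by 1.73 (SE 0.25, edgeR adjusted p 0.0032), from 1.30 ± 0.264 CPM in Par (SD, n = 3) to 4.35 ± 0.116, and all 9 fits without a single library kept the call. It was lower in BrM2 than in LM2 by a log2 fold change of -1.09 (edgeR adjusted p 0.028, 3 of 9 fits). This last call was kept only without Par replicate 1 or 3 or LM2 replicate 1 (log2 fold changes from -1.22 to -0.98 over the 9 fits). MICA and MICB were lower in LM2 than in Par with the block, and 13.9% of the 50-base stretches of RAET1E also occur in one other gene. HLA-F, a nonclassical class I gene, fell by 1.96 in BrM2 (edgeR adjusted p 0.0059), with its antisense gene HLA-F-AS1 on the opposite strand. PDIA6, a disulfide isomerase that takes part in MICA shedding, was higher in BrM2 than in LM2 by 0.75 (edgeR adjusted p 0.015, 5 of 9 fits) and than in Par by 0.53 (edgeR adjusted p 0.049, 2 of 9 fits), and ATP6V1C2 overlaps it on the opposite strand. The PDIA6 call against LM2 was lost without replicate 2 or 3 of either line (log2 fold changes from 0.68 to 0.82 over the 9 fits), and that against Par was kept only without replicate 1 of LM2 or BrM2 (log2 fold changes from 0.46 to 0.60 over the 9). The sheddases ADAM10 (215 ± 90.1 CPM in Par, 114 ± 55.7 in LM2 and 100 ± 50.7 in BrM2) and ADAM17 (35.5 ± 10.4, 27.4 ± 9.40 and 55.8 ± 17.1 CPM) were not called. With the block, ADAM10 was lower in both sub-populations than in Par (adjusted p = 0.00028 and 6.2e-05, edgeR), and ADAM17 was higher in BrM2 than in LM2 (edgeR adjusted p 7.9e-05).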

How the data were processed

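The authors deposited a table of raw read counts per gene, made by aligning reads to hg38 with STAR 2.7.0 after base calling with CASAVA 1.8.2, per the labels. The libraries were made with a stranded mRNA kit, but the strand setting of the counting is not given in the sources used here, so counts of genes that overlap on opposite strands are uncertain. Beside the genes for which this is said above, it applies to MICA, JAK1, CMTM6, IRF1, QPCTL, ENTPD1, ADAM10 and ADAM17, each overlapped by another expressed gene. A second deposited table, with the authors' own DESeq2 fold changes and p-values, was not used. The 58887 rows hold 58884 genes, and 3 repeated identifiers with identical counts were kept once.

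Counts were tested in edgeR 4.0.16 (R 4.3.3, limma 3.58.1) with TMM normalization and the quasi-likelihood test, all 9 libraries in 1 fit, and Benjamini-Hochberg adjustment over 13055 genes at an adjusted p of 0.05. The filter followed HTSFilter, with 100 thresholds from 1 to 200 compared by the Jaccard index and a threshold of 47.15 normalized counts. A gene was kept when its largest normalized count over the 9 libraries was above this threshold. The tested genes held 99.64 to 99.78% of counts. The alternatives were relative log expression factors, DESeq2 1.42.0, other filters, libraries left out, the 6 libraries of a comparison alone, and the replicate number as a block. Replicate numbers come from the labels, and the 9 pairs of libraries with the same number had correlated deviations from their line means (0.23 to 0.9), so the numbers were taken as pairing. The 18 pairs with different numbers ran from -0.88 to 0.8, and those of a replicate 2 with a replicate 3 from 0.39 to 0.8, so that replicate 1 stood apart while replicates 2 and 3 were not separated by their numbers. The numbers' meaning beyond different passages is not given in the sources used here.

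The 10 genes and all lists were chosen with earlier results of these data known. Partner genes were named when called without the block in at least 1 comparison, and others named were chosen after their values were seen. Symbols were taken from the count table, in which CD70 was not matched and is not analysed here. The result for 1 gene of the lists is not reported here. Positions and promoters are from RefSeq (GRCh38.p14). Exon lengths, overlaps between genes, GC content and shared 50-base stretches are from GENCODE v44, lifted to an earlier genome build than hg38. Its coordinates are not printed here, and lengths were found for 12989 genes (99.5%). Motifs, alignments and figures used Python 3.11.15 with Biopython 1.88, pandas 2.3.3 and matplotlib 3.10.9.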

Additional observations from a re-analysis of the deposited data

How the results depend on the processing

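Of the fold changes of the 10 genes recomputed under the alternatives, 568 stayed above the threshold of the adjusted p and 62 passed it, in the direction of the value without the block. The replicate number was taken as pairing, although replicates 2 and 3 were not separated by their numbers. With it as a block, 6 of the 10 genes were called in LM2 vs Par, 2 in BrM2 vs Par and 6 in BrM2 vs LM2, and 4510, 5577 and 4896 of all genes instead of 1134, 1733 and 1057. DESeq2 called 1893 genes in LM2 vs Par, and 1824 genes in BrM2 vs LM2 with 2 of the 10. Without replicate 1 of all 3 lines, 4327, 5274 and 4257 genes and 6, 3 and 5 of the 10 were called, without replicate 2 70, 159 and 53 genes, and without replicate 3 136, 274 and 113 genes. The 6 libraries of BrM2 vs LM2 alone gave 598 genes. Leaving out 1 library at a time gave 591 to 1266, 941 to 2119 and 545 to 1211 genes, and 0 to 1, 0 and 0 to 2 of the 10, the calls coming without LM2 replicate 1 (MICA, and then NT5E and ULBP2). In alternatives chosen after seeing the data, the block without replicate 1 called 3651, 4808 and 3725 genes and 5, 2 and 5 of the 10, without replicate 2 4212, 5846 and 5374 genes and 4, 3 and 6, and without replicate 3 2149, 3017 and 2066 genes and 1, 1 and 2. Why replicate 1 differs was not tested. Depth limits PDCD1LG2 most.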
